A study of Mus musculus with 6 samples.

Results

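The dentate gyrus spots are the spots of 6 mouse brain sections with the strongest signal of 4 granule cell genes, and this account covers the 267 of them found among 13334 eligible spots. Spatial transcriptomes were collected with Visium, a slide whose grid of barcoded spots captures polyadenylated RNA and counts each captured molecule once by its unique molecular identifier (UMI). A spot is a small disc of tissue and holds several cells. A spot was eligible when it lay over tissue, had a barcode in the count matrix and held at least 1000 UMIs. The members were selected by the summed natural log of 1 plus UMIs per 10000 of Prox1, C1ql2, Tdo2 and Lct, and spots at or above the 98th percentile over all 6 sections (a score of 2.55849) were kept. The levels of these 4 genes therefore chose the members and are given only as a description.

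All mice were female, and in all of them the coding part of mouse Apoe had been replaced by human APOE3 (E3) or APOE4 (E4) on both alleles, under the mouse promoter of that gene. There was 1 section for each of 6 groups, each a right hemisphere cut coronally through the hippocampus. The young E3 and E4 mice were 3 months old and the aged E3 and E4 mice 24 months. The E3 5xFAD and E4 5xFAD mice were 12 months old and carried mutant human transgenes, APP among them, driven by the Thy1 promoter, which is active in neurons, and came from a cross to a strain of mixed B6SJL background. 5xFAD against young therefore mixes transgene, age and background, and with 1 mouse a group, age cannot be told apart from the handling of a mouse before its death, its slide or its sequencing run.

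The granule cells of the dentate gyrus form a dense layer in the hippocampus, receive input from the entorhinal cortex and send mossy fibers to CA3. They are known for sparse firing and for the birth of new neurons at the inner edge of the layer. Immediate early genes are transcribed within minutes of strong synaptic activity without new protein synthesis, many of them through cAMP response elements and serum response elements in their promoters, and they are widely used as a record of which neurons were active shortly before the tissue was taken.

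The promoters of 4 immediate early genes that the results turn on (Npas4, Fos, Fosb and Btg2) are shown from RefSeq (mouse build GRCm38.p6), each from 250 bases before to 50 bases after the annotated start, in the direction of transcription. Capitals mark the letters TGACG, or CGTCA on the other strand, the short core of the cAMP response element (CRE), or the full site TGACGTCA that holds it on both strands. The windows lie at chr19:4989922-4990221 (minus strand) for Npas4, chr12:85473640-85473939 (plus strand) for Fos, chr7:19309996-19310295 (minus strand) for Fosb and chr1:134079106-134079405 (minus strand) for Btg2.
Npas4: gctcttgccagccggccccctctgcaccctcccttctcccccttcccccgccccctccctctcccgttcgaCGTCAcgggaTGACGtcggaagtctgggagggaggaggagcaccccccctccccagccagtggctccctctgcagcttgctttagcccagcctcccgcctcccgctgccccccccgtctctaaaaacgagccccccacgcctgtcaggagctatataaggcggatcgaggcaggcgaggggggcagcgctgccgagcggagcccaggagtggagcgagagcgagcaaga
Fos: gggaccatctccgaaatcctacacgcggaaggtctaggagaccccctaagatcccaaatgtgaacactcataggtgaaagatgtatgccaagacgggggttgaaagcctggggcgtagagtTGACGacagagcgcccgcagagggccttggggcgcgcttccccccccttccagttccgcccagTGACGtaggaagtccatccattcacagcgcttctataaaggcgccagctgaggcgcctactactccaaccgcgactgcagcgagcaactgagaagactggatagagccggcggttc
Fosb: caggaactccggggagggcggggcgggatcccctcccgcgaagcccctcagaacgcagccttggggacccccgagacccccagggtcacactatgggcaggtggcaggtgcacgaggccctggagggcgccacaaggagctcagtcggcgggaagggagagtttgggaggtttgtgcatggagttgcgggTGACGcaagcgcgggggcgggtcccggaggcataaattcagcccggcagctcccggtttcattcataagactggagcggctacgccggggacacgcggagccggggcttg
Btg2: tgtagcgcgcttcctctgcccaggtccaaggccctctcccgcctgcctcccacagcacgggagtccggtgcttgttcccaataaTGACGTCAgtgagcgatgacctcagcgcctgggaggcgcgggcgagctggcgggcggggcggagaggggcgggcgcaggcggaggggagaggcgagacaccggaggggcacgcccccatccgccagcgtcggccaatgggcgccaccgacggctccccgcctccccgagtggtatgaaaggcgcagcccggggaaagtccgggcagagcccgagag
Npas4 and Fos held 2 short cores each and Fosb held 1. Btg2 held the full CRE. Of the 19 immediate early genes that were higher in the aged sections, 15 had a promoter in the tables used here, and 11 of these 15 held a short core, against 23% of 27025 genes with a promoter. The full CRE was in 2 of the 15 (Btg2 and Dusp1) and in 2.03% of genes. The CArG box, the core of the serum response element, was in 1 of the 15 (Egr2) and in 1.81% of genes. These matches describe letters in a fixed window and say nothing of binding.

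Members numbered 46 of 2644 eligible spots in young E3 (1.74%), 45 of 2243 in young E4 (2.01%), 42 of 2140 in aged E3 (1.96%), 48 of 1445 in aged E4 (3.32%), 50 of 2322 in E4 5xFAD (2.15%) and 36 of 2540 in E3 5xFAD (1.42%). The exact 95% binomial intervals of the lowest and highest share were 0.995% to 1.96% and 2.46% to 4.38%. These intervals cover counting error only, and the shares were not tested. They also depend on how many spots under tissue had a barcode in the matrices, from 1688 of 2225 in aged E4 to 2773 of 2775 in E3 5xFAD, whose part in the shares was not tested. The members together held from 610931 UMIs in E3 5xFAD to 1371042 in aged E3, with a median of 17813 to 31128.5 UMIs per member spot, and E3 5xFAD values are accordingly the least precise. Levels are in CPM, the UMIs of a gene in each 1000000 UMIs of all members of a section. Where 2 values stand for young, aged or 5xFAD, the first is the E3 and the second the E4 section. A log2 fold change is given with an approximate standard error (SE), worked back from the statistic of its test. For genes of few UMIs this SE can be smaller than counting error alone.

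**Figure D1:**
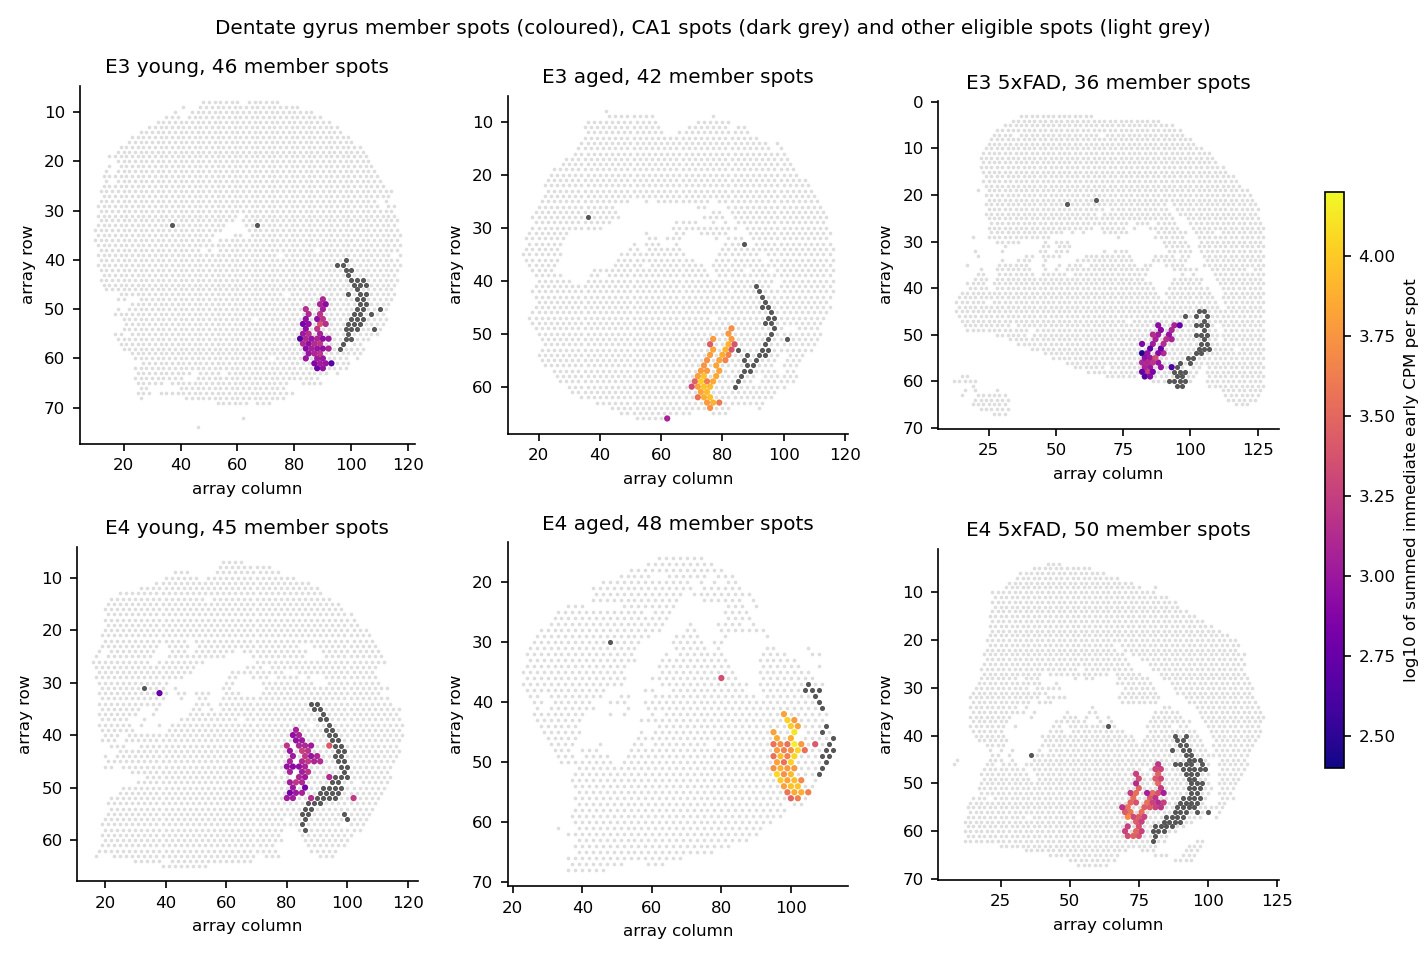
Position of the dentate gyrus member spots in each of the 6 sections, on the array's own column and row grid. Members are coloured by the log10 of their summed immediate early gene level (CPM), CA1 spots are dark grey and other eligible spots light grey. Most members lie in 1 compact band in each section (34 to 50 spots), and both aged sections carry the brightest colours (medians of 6040 and 6383 CPM).

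The label fitted the tissue. In every section most members formed 1 connected band on the array grid (34 to 50 spots), and only 10 of the 267 had no member among their neighbours. All 4 genes of the rule were seen in 137 members, at least 3 in 254 and only 2 in the other 13. Just inside the threshold the lowest members scored 2.56034 and 2.57962, and the highest spots outside scored 2.55753 and 2.54924, so the edge is a point in a continuous range.

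Prox1, the transcription factor that fixes granule cell identity, had 179 and 156 CPM in young E3 and E4, 181 and 163 in aged and 175 and 186 in 5xFAD. C1ql2, a secreted synaptic protein of mossy fiber terminals, had 344 and 316 CPM in young, 346 and 359 in aged and 358 and 260.0 in 5xFAD. Lct, a disaccharidase gene that serves as a granule cell marker, had 145 and 119 CPM in young, 179 and 158 in aged and 183 and 146 in 5xFAD. Tdo2, a tryptophan oxygenase, was the most uneven of the 4, with 56.3 and 44.3 CPM in young, 29.9 and 58.5 in aged and 52.4 and 25.7 in 5xFAD.

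A further 12 granule cell genes outside the rule were summed as a check on the label. They had 1341 to 1629 CPM in the 6 member sums, 234 to 369 CPM in CA1 spots and 378 to 449 CPM in the rest of the sections. A UMI of at least 1 of the 12 was present in 265 of the 267 members. Dsp, which encodes the junction protein desmoplakin, had 195 and 147 CPM in young, 151 and 155 in aged and 137 and 137 in 5xFAD members, against at most 8.13 CPM in CA1. Calb1, the calcium buffer calbindin, had 346 and 308 CPM in young, 317 and 234 in aged and 342 and 261 in 5xFAD and Stxbp6, a SNARE-binding protein, 305 and 264 CPM in young, 322 and 299 in aged and 340.5 and 209 in 5xFAD. In each genotype pair of the young, aged and 5xFAD mice Calb1 was the lower in the E4 section. However, none of the 12 genes passed the test of any of the 4 contrasts by edgeR, DESeq2 or limma. Of all genes, edgeR called 0.0478% to 0.65% in a contrast. An unadjusted p under 0.05 was seen for 1 to 4 of the 12.

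Genes outside the marker lists that stood high in the members against the other spots of their section included Pla2g2f, a secreted phospholipase (log2 ratio of 4.91 to 5.37 over the 6 sections), Il20rb, an interleukin receptor chain (4.01 to 5.47), Slc26a10 (3.83 to 4.65), and Ntf3, the neurotrophin NT-3 (3.43 to 4.26). These ratios follow from the selection and have no test. Markers of other tissue were also present in the members. The 5 CA1 genes summed to 106 to 198 CPM in members and 1430 to 1702 CPM in CA1 spots, and 5 hilar mossy cell genes to 26.7 to 58.9 CPM in members. The 5 genes listed for CA2 summed to 1320 to 1602 CPM in members, more than the 380 to 612 CPM of CA1 spots, and Pcp4, a calmodulin regulator, made up most of that sum (1475 and 1291 CPM in young, 1381 and 1357 in aged and 1339 and 1206 in 5xFAD). The 10 interneuron genes summed to 1280 to 1881 CPM in members and 3047 to 3828 CPM in CA1 spots, and the 14 astrocyte genes to 2450 to 3072 CPM in members. The 6 choroid plexus genes summed to 3074 CPM in young E3, 196 in young E4, 213 in aged E3, 726 in aged E4, 1262 in E4 5xFAD and 241 in E3 5xFAD. The 15 myelin genes had 2975 CPM in young E4 and 1545 to 2299 CPM in the other 5 sections. The deposited labels call the sampled cells non-neuronal, whereas these spots hold neuronal markers throughout.

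**Figure D2:**
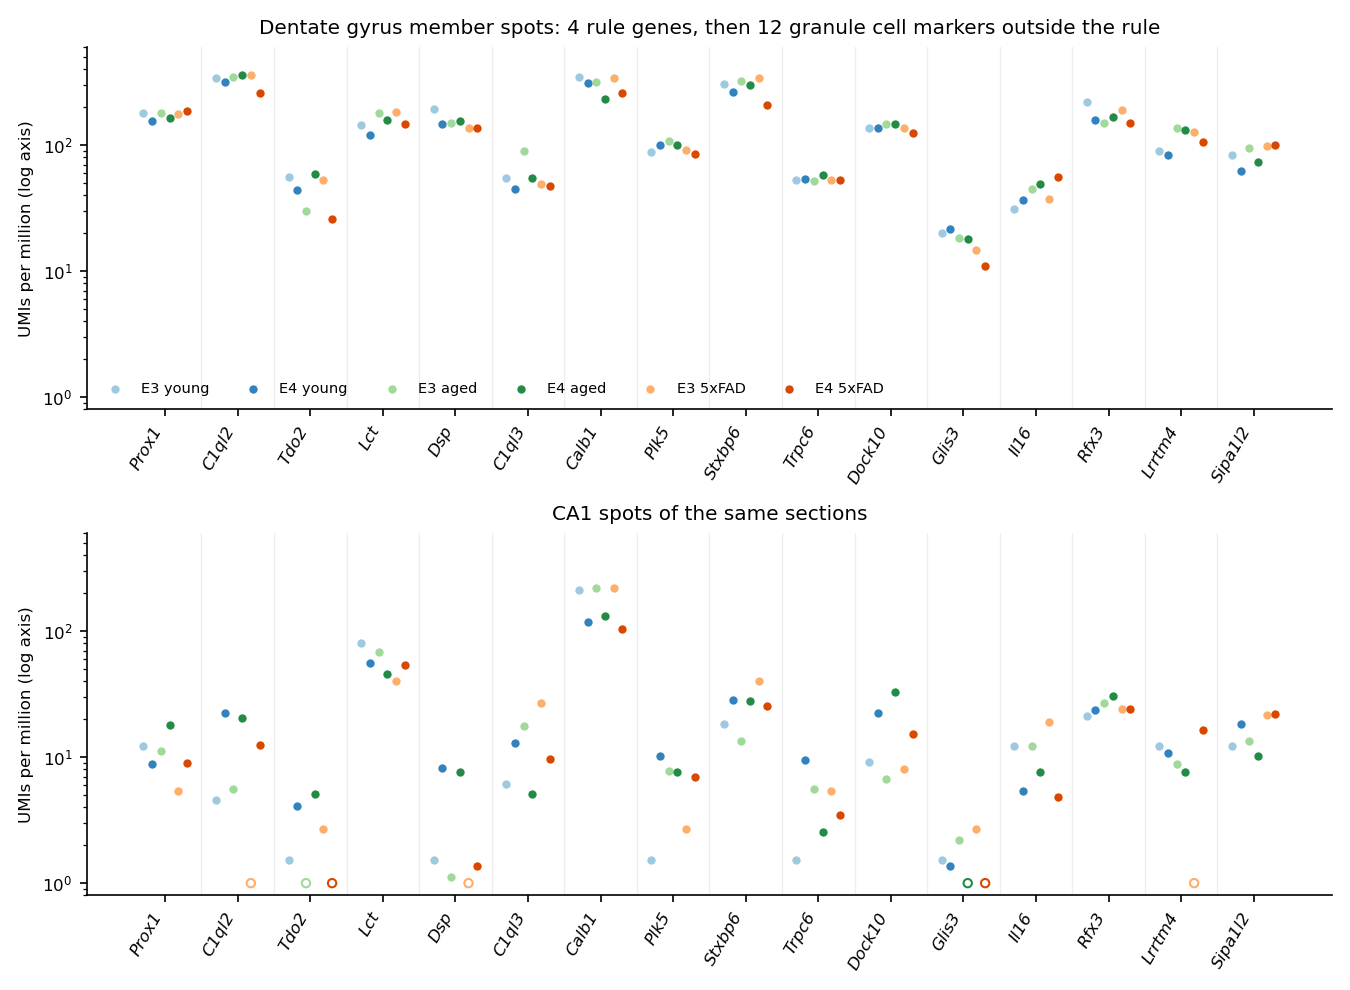
Levels of the 4 rule genes and the 12 other granule cell genes in the member spots and in CA1 spots, in CPM on a log axis, 1 point per section (open circles lie under 1). The 12 genes outside the rule sum to 1341 to 1629 in members and to 234 to 369 in CA1.

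The first comparison asked how the aged dentate gyrus differed from the young over both genotypes. Immediate early genes were far higher in both aged sections: Fos by a log2 fold change of 5.82 ± 0.44 (SE), Npas4 by 6.31 ± 0.42 and Fosb by 5.26 ± 0.31. In all, 34 of 10459 genes tested (0.325%) passed an adjusted p of 0.05, 33 higher (0.316%) and 1 lower (0.00956%) in aged. Of the 30 immediate early genes listed, 27 passed the filter on low counts (Klf4, Maff and Sik1 did not) and 19 were called, all higher. The median log2 fold change of the 27 was 2.06 against -0.001 for all genes tested. The filter favours genes that are high in some group, so the 27 stand for the measurable genes only.

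Fos, a subunit of the AP-1 transcription factor, had 12.1 and 15.3 CPM in young E3 and E4, 761 and 710.4 in aged E3 and E4, and 11.5 and 174 in E3 5xFAD and E4 5xFAD (adjusted p = 7.6e-09 for aged against young, as for each value that follows). Npas4, a neuron-specific transcription factor induced by calcium entry, had 7.03 and 6.11 CPM in young, 486 and 513 in aged and 9.82 and 119 in 5xFAD (adjusted p = 1.1e-09). Fosb, another AP-1 subunit, had 10.0 and 11.5 CPM in young, 408 and 407 in aged and 14.7 and 81.8 in 5xFAD. For each of these genes the aged pair lay above all other sections and differed little within itself, and E4 5xFAD stood between the aged pair and the rest.

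The AP-1 partners followed at different sizes. Junb had 70.3 and 85.6 CPM in young, 886 and 1056 in aged and 40.9 and 291 in 5xFAD (log2 fold change of 3.70 ± 0.31). Jun, which is high at rest, rose less, with 251 and 216 CPM in young, 414 and 519 in aged and 275 and 226 in 5xFAD (0.999 ± 0.14). Fosl2, a slower member of the family, was not called, with 37.2 and 38.2 CPM in young, 36.5 and 41.3 in aged and 34.4 and 31.2 in 5xFAD (0.04 ± 0.23, adjusted p = 1).

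The Egr zinc finger transcription factors all rose in the aged sections. Egr1 had 68.3 and 107 CPM in young, 539 and 639 in aged and 55.7 and 203 in 5xFAD (2.79 ± 0.21). Egr4 had 27.1 and 46.6 CPM in young, 492 and 492 in aged and 22.9 and 185 in 5xFAD (3.81 ± 0.33). Egr2 was scarce, at 3.01 and 2.29 CPM in young, 29.2 and 37.0 in aged and 4.91 and 8.27 in 5xFAD (3.62 ± 0.45), and Egr3 started higher, at 149 and 112 CPM in young, 247 and 461 in aged and 144 and 153 in 5xFAD (1.41 ± 0.19). Of the orphan nuclear receptors, Nr4a1 (32.1 and 45.1 CPM in young, 295 and 288 in aged and 26.2 and 42.3 in 5xFAD; 2.90 ± 0.17) and Nr4a2 (22.1 and 19.1 CPM in young, 70.0 and 119 in aged and 16.4 and 15.6 in 5xFAD; 2.19 ± 0.24) rose, while Nr4a3 had -0.57 ± 0.27 and was not called (adjusted p = 1). In contrast to Fos, Nr4a1 and Nr4a2 in E4 5xFAD did not exceed the higher young section.

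Genes that act outside the nucleus or restrain the response rose too. Arc, which internalises AMPA receptors at active synapses, had 56.3 and 74.1 CPM in young, 398 and 402 in aged and 37.6 and 139 in 5xFAD (2.64 ± 0.23, adjusted p = 7.1e-08). Btg2, an antiproliferative regulator of mRNA decay, had 29.1 and 32.9 CPM in young, 429.6 and 626 in aged and 24.6 and 98.3 in 5xFAD (4.11 ± 0.22). Gadd45g, a gene of the growth arrest and DNA damage family, had 40.2 and 37.5 CPM in young, 639.7 and 617 in aged and 42.6 and 295 in 5xFAD (4.10 ± 0.36). The MAP kinase phosphatases Dusp1 (1.77 ± 0.26) and Dusp6 (1.43 ± 0.23) were called as well, but Dusp1 was not called without young E3, nor Dusp6 without young E3 or without aged E3.

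Most slower effectors of activity were not called. Of 15 listed genes 11 were tested and 2 were called: Rgs2, a regulator of G protein signalling, with 54.2 and 42.0 CPM in young, 339 and 363 in aged and 72.0 and 104 in 5xFAD (2.88 ± 0.17), and Ptgs2, the cyclooxygenase COX-2, with 24.1 and 19.1 CPM in young, 105 and 110.1 in aged and 31.1 and 36.7 in 5xFAD (2.33 ± 0.21). The median of the 11 was 0.33 against -0.001 for all genes tested, 9 were above 0 and 5 had an unadjusted p under 0.05. Of all genes tested 0.325% were called. Bdnf, a neurotrophin that activity induces, had 104 and 105 CPM in young and 107 and 103 in aged (0.01 ± 0.15, adjusted p = 1), and Homer1, a postsynaptic scaffold gene, 76.4 and 60.4 CPM in young and 75.9 and 43.0 in aged (-0.20 ± 0.20, adjusted p = 1).

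**Figure D3:**
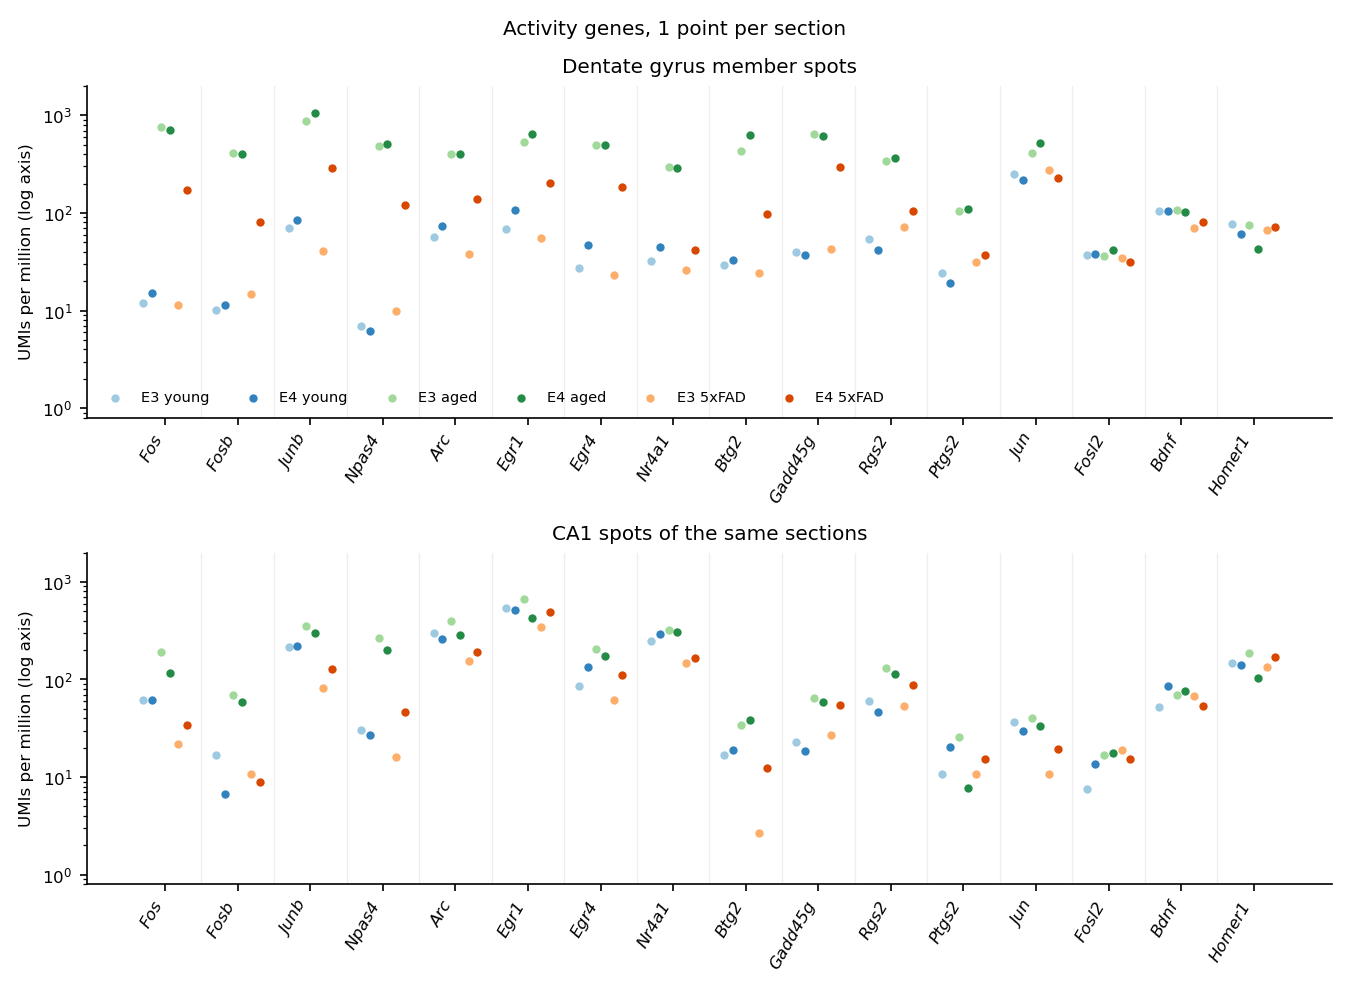
Levels of 16 activity genes in dentate gyrus members and in CA1 spots, in CPM on a log axis, 1 point per section. In the members both aged sections lie above the young sections for Fos (761 and 710.4 against 12.1 and 15.3) and E4 5xFAD lies between them (174).

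Among the 11 called genes in none of the lists were Arl4d, a small GTPase (28.1 and 29.0 CPM in young, 311 and 389 in aged and 26.2 and 130.4 in 5xFAD; 3.66 ± 0.27), Ppp1r15a, a phosphatase subunit of the stress response (2.87 ± 0.30), Plk2, a polo-like kinase that activity induces (139 and 155 CPM in young, 322 and 349 in aged and 174 and 192 in 5xFAD; 1.19 ± 0.13), and Pcdh8, a synaptic protocadherin (1.04 ± 0.15). Ighm, the immunoglobulin mu heavy chain, had 47.2 and 25.2 CPM in young, 141 and 88.6 in aged and 109.7 and 135 in 5xFAD (1.69 ± 0.23). The 1 lower gene was Ptgds, a prostaglandin D synthase of leptomeninges and oligodendrocytes, with 691 and 614 CPM in young, 384 and 392 in aged and 601 and 561 in 5xFAD (-0.75 ± 0.12, adjusted p = 0.0011); it was not called without young E3. Hbb-bs, a beta globin of red blood cells, was called at 2.83 ± 0.36 on 9.04 and 6.11 CPM in young, 27.0 and 79.1 in aged and 4.91 and 8.27 in 5xFAD, but not without aged E4 or without young E4, and the 5 blood genes together had 51.1 and 162 CPM in aged and 9.82 to 23.1 CPM in the other sections. All 34 genes had the same direction in the E3 pair and the E4 pair, and 23 were called whichever 1 of the 6 sections was left out, while the count over all genes was 62 without aged E3. DESeq2 called 16 genes in this contrast, 8 of them immediate early genes, and limma on the mean level per spot called 17 immediate early genes.

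No gene of the glial lists was called with age, beside 0.325% of all genes tested, though most astrocyte and myelin genes had values under 0. At that share lists of this size would hold few or no calls, so their absence does not show that glia were unchanged. None of 21 tested disease-associated microglial genes, 12 homeostatic microglial genes, 7 complement genes, 4 reactive astrocyte genes and 14 astrocyte genes was called in aged against young by edgeR, DESeq2 or limma, and 0, 0, 1, 0 and 4 of them had an unadjusted p under 0.05. All 14 astrocyte genes had a log2 fold change under 0, with a median of -0.27, and 1 was called without E3 5xFAD, without E4 5xFAD or without aged E3. Of 15 myelin genes 13 were under 0, with a median of -0.40, and none was called by the 3 tools (7 with an unadjusted p under 0.05). Without aged E3, 9 of the 15 were called, all lower (median -1.09), and without young E4, the section with the most myelin RNA, none was (median 0.15). Gfap, the astrocyte filament, had 62.3 and 81.0 CPM in young and 84.6 and 86.0 in aged (0.30 ± 0.24, adjusted p = 1), and Tyrobp, an adaptor of microglial receptors, 40.2 and 29.0 CPM in young and 37.9 and 26.7 in aged (-0.02 ± 0.36, adjusted p = 1).

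Immediate early RNA was raised in nearly all member spots of the aged sections. The summed level of the 30 genes per spot had a median of 6040 CPM in aged E3 (lowest 1175, highest 10570) and 6383 CPM in aged E4 (2237 to 14387). In young E3 it was 1043 CPM (434 to 2347) and in young E4 1188 CPM (569 to 2574), in E3 5xFAD 973 CPM (284 to 2183) and in E4 5xFAD 2259 CPM (1115 to 4974). The highest young spot was exceeded by 38 of 42 members in aged E3, 47 of 48 in aged E4, 21 of 50 in E4 5xFAD and none of 36 in E3 5xFAD. Spots of 1 section are not replicates, so these counts describe the 6 sections.

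A Fos UMI was present in 17.4% of young E3 members, 37.8% of young E4, 100% of aged E3, 97.9% of aged E4, 13.9% of E3 5xFAD and 90% of E4 5xFAD. With each spot thinned to 5000 UMIs, which left out 0 to 2 members a section, the shares were 6.52%, 15.9%, 95.2%, 91.5%, 5.88% and 60%. For Npas4 the thinned shares were 0% (0 of 46 spots, with an exact 95% interval up to 7.71%), 4.55%, 85.7%, 89.4%, 2.94% and 50%, against 6.52%, 15.6%, 95.2%, 95.8%, 13.9% and 86% unthinned. In CA1 spots, of which thinning left out 0 to 10 a section, the thinned Fos shares were 20%, 22.6%, 67.7%, 47.4%, 0% and 17.1% (48.8%, 78.2%, 87.9%, 84.2%, 17.9% and 45.2% unthinned). In the young sections fewer members than CA1 spots held a Fos UMI, and in the aged and E4 5xFAD sections more did.

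**Figure D4:**
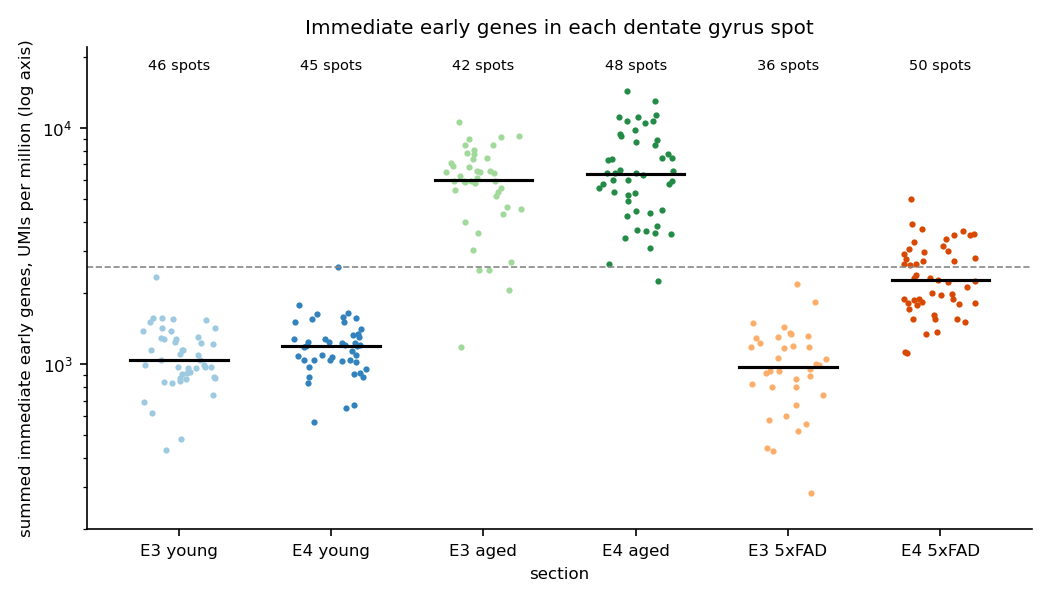
Summed immediate early gene level of each dentate gyrus member spot, in CPM on a log axis, by section. Black bars are medians and the dashed line is the highest young spot (2574), which 38 of 42 aged E3, 47 of 48 aged E4, 21 of 50 E4 5xFAD and 0 of 36 E3 5xFAD spots exceed.

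CA1, the neighbouring pyramidal field, was used to ask whether the change with age differed between the 2 fields. CA1 spots were taken by 4 CA1 genes in the same manner (262 spots, 19 to 73 a section). The effect of age differed between the fields for 30 of 10817 genes tested (0.277%), 26 of them higher in the dentate gyrus than the effect in CA1, and 15 of 27 tested immediate early genes were among the 26. Fos had 61.1 and 62.4 CPM in young CA1, 191 and 117 in aged and 21.6 and 34.5 in 5xFAD, and its age effect was larger in the dentate gyrus by 4.55 ± 0.30 on the log2 scale (adjusted p = 1.3e-39). In the young sections Fos stood lower in the dentate gyrus than in CA1 and in the aged sections higher.

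Egr1 and Arc started from a higher level in CA1 than in the dentate gyrus. In aged E4 both genes stood higher in the dentate gyrus than in CA1. In aged E3 Egr1 stood lower in the dentate gyrus and Arc was nearly level. Egr1 in CA1 had 542 and 518 CPM in young and 670.2 and 431 in aged, with a difference between the fields of 2.77 ± 0.16. Arc in CA1 had 298 and 263 CPM in young and 394 and 288 in aged, with a difference of 2.38 ± 0.18. Junb (3.11 ± 0.18), Egr4 (3.08 ± 0.23) and Nr4a1 (2.69 ± 0.20) were called whichever section was left out, as were Fos, Egr1 and Arc. Npas4, which rose in CA1 too (30.5 and 27.1 CPM in young and 265 and 201 in aged; log2 fold change within CA1 3.08, adjusted p = 1.2e-12), differed by 3.26 ± 0.39, but not without young E4. Without young E4 the count over all genes fell to 9, of which 6 were immediate early genes. The lower genes were the choroid plexus genes Enpp2 (-1.43 ± 0.22) and Ttr (-0.88 ± 0.17), neither of which was called without young E3 or without aged E3, and in young E3 Ttr had 2676 CPM in the members, and the other two were Eif5b and Lypd1.

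The second comparison set both 5xFAD sections against both young sections, and the E4 5xFAD section carried most of it. In all, 51 genes were called (0.488%), 33 higher (0.316%) and 18 lower (0.172%), but only 6 without E4 5xFAD, 28 without young E3, and 8 by DESeq2. The count was 95 without aged E3 and 91 without aged E4. Both contrasts with young share the same 2 young sections. Human APP, which only the 5xFAD mice should carry, had 0 UMIs in the 4 other member sums and 81.8 and 146 CPM in E3 5xFAD and E4 5xFAD, at least 27.2-fold over young E3 and at least 63.7-fold over young E4 when 0 is set to a floor of 3 UMIs per section. Thy1, the gene whose promoter drives the transgenes, had 674 and 590.1 CPM in young, 683 and 648 in aged and 4146 and 6148 in 5xFAD members (2.96 ± 0.15, adjusted p = 1.7e-11). Whether transgene RNA adds to the Thy1 counts of the 5xFAD sections was not tested. Human APOE had 465 and 602 CPM in young, 441 and 469 in aged and 559.8 and 786 in 5xFAD, and its counts do not tell APOE3 from APOE4.

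Microglial and complement genes were higher in 5xFAD. Of 30 disease-associated microglial genes 21 were tested and 7 called by edgeR, all higher (median log2 fold change of 0.64). Of 11 complement genes 7 were tested and 4 called by edgeR, all higher (1.29). In these 2 lists limma called 8 and 4 genes. DESeq2 called none of them, and none of the homeostatic microglial or reactive astrocyte genes. Trem2, a lipid-sensing microglial receptor, had 19.1 and 20.6 CPM in young, 13.9 and 22.4 in aged and 29.5 and 100.1 in 5xFAD (1.69 ± 0.30). Its adaptor Tyrobp had 40.2 and 29.0 CPM in young, 37.9 and 26.7 in aged and 73.7 and 198 in 5xFAD (2.00 ± 0.30). Cst7, the protease inhibitor cystatin F, had 1.0 and 0 CPM in young, 0 and 0 in aged and 18.0 and 49.6 in 5xFAD, at least 21.6-fold higher in E4 5xFAD than in young E4.

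C1qa, a chain of the complement initiator C1q, had 53.2 and 46.6 CPM in young, 62.0 and 55.9 in aged and 96.6 and 207 in 5xFAD (1.60 ± 0.23), and C4b, the next component of that pathway, 11.1 and 16.8 CPM in young, 18.2 and 19.8 in aged and 32.7 and 113 in 5xFAD (2.35 ± 0.32). The lysosomal protease Ctsd had 241 and 242 CPM in young, 259.7 and 238.2 in aged and 401 and 719 in 5xFAD (1.15 ± 0.17) and Lyz2, a myeloid lysozyme, 11.1 and 10.7 CPM in young, 10.2 and 10.3 in aged and 42.6 and 48.7 in 5xFAD (2.02 ± 0.32). For these genes E3 5xFAD lay above the young and aged sections and E4 5xFAD higher again. Gfap, called as 1 of 4 tested reactive astrocyte genes, had 154 and 412 CPM in E3 5xFAD and E4 5xFAD (1.92 ± 0.22, adjusted p = 3.3e-05).

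Of 12 tested homeostatic microglial genes 1 was called, higher in 5xFAD, and 4 had an unadjusted p under 0.05. Their median log2 fold change was 0.65, with 10 above 0 and 2 below. P2ry12, a purinergic receptor, had 17.1 and 26.8 CPM in young, 24.1 and 12.0 in aged and 18.0 and 25.7 in 5xFAD (-0.04 ± 0.37, adjusted p = 0.99), and Tmem119 18.1 and 16.8 CPM in young, 10.9 and 20.6 in aged and 16.4 and 20.2 in 5xFAD (0.03 ± 0.37, adjusted p = 0.99). Without E4 5xFAD no gene of the microglial lists was called, nor were C1qa, C4b or Gfap, and Cst7 then fell under the filter on low counts. In summed spots, more cells of a type and more RNA per cell cannot be told apart. For the disease-associated, homeostatic and complement lists, no gene was called for a different effect of 5xFAD in CA1 (0 of 24, 14 and 6). Their median differences were -0.32, -0.58 and -0.57, dentate gyrus minus CA1, against 0.01 for all genes tested. In these lists 4, 4 and 2 genes had an unadjusted p under 0.05. The lack of calls alone does not show that the fields responded alike.

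**Figure D5:**
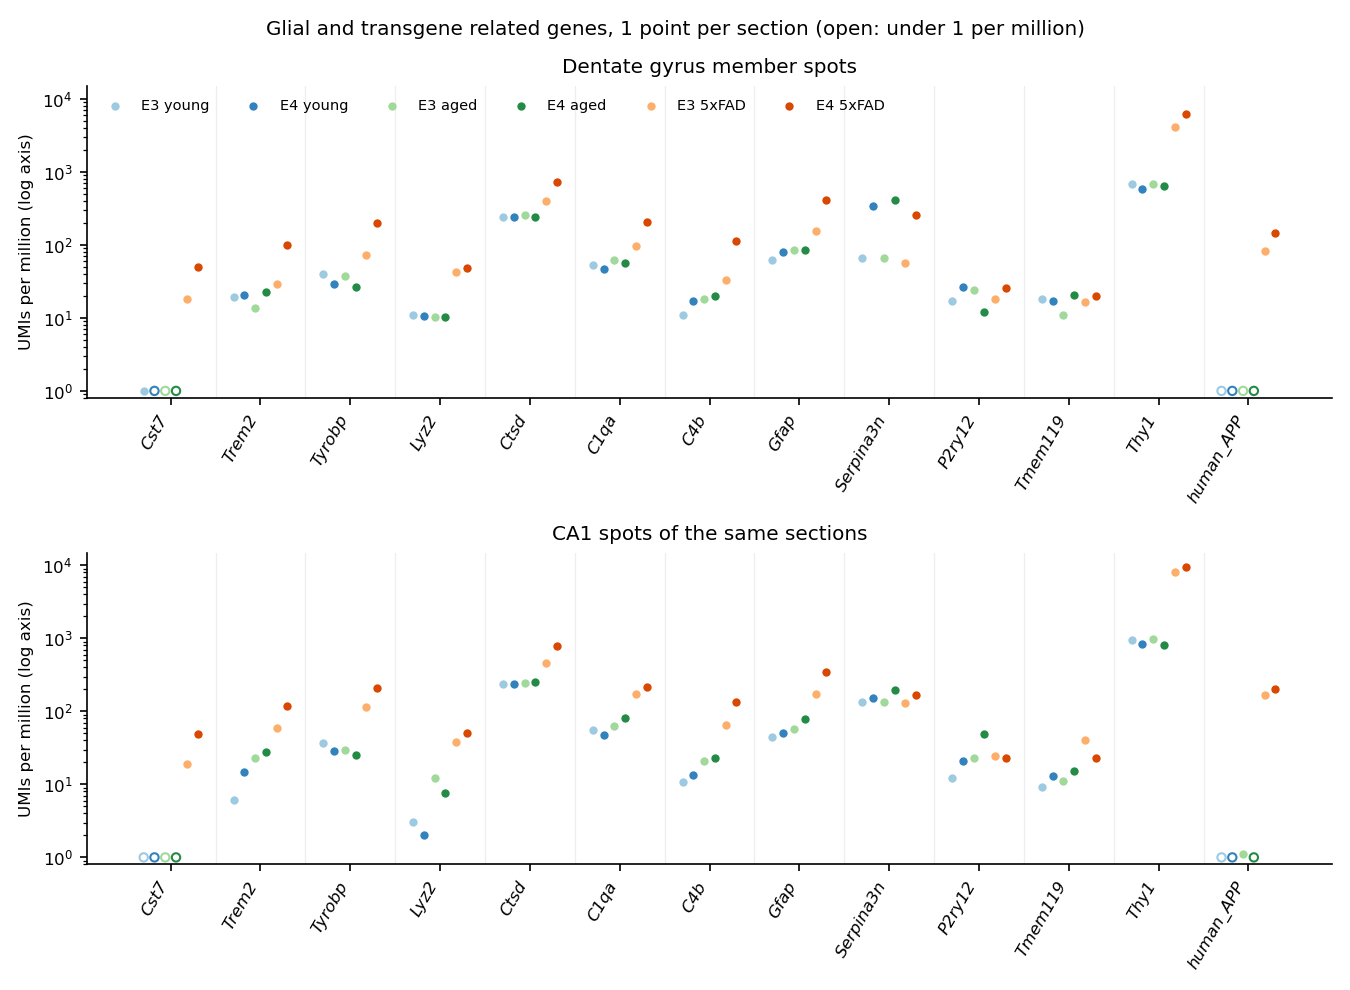
Levels of glial and transgene related genes in dentate gyrus members and in CA1 spots, in CPM on a log axis, 1 point per section (open circles lie under 1). E4 5xFAD has the highest level in the members for Trem2 (100.1), C1qa (207) and Gfap (412), with E3 5xFAD below it (29.5, 96.6 and 154), while Serpina3n separates all 3 E4 sections from the E3 sections.

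The activity genes called in 5xFAD against young were Npas4 (3.39 ± 0.56), Fos (2.79 ± 0.53), Fosb (2.25 ± 0.43) and Gadd45g (2.09 ± 0.40), 4 of 27 immediate early genes tested, and none was called without E4 5xFAD, by limma only 2 and by DESeq2 none. In E3 5xFAD Fos had 11.5 CPM and did not exceed young E3. Side by side without a test, E4 5xFAD over E3 5xFAD gave a log2 ratio of 3.92 for Fos (95% interval of 2.85 to 5.26 from 189 and 7 UMIs), 3.60 for Npas4 (2.44 to 5.08), 2.83 for Junb (2.24 to 3.48), 1.88 for Arc (1.24 to 2.58) and 1.87 for Egr1 (1.34 to 2.43). These intervals cover counting error only. Of 22 immediate early genes with at least 20 UMIs in this pair, 11 were over 2-fold higher in E4 5xFAD and none over 2-fold lower, beside 2.43% and 2.02% of 9454 genes. In aged mice the same ratio of E4 over E3 was -0.10 for Fos (-0.23 to 0.03) and 0.08 for Npas4 (-0.08 to 0.24). Whether the effect of E4 differs between conditions could not be tested with 1 section a group.

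Of the 18 genes lower in 5xFAD than in young, 9 were of the mitochondrial genome, whose 13 genes had a median log2 fold change of -0.48. Their sum was also lower outside the members. It had 88199 and 94910.5 CPM in young and 76269 and 83088 in 5xFAD CA1. In the remaining spots it had 136311 and 139732 CPM in young and 114743 and 94366 in 5xFAD. The effect of 5xFAD was called different from CA1 for 0 of the 13 (median difference of -0.24, 6 with an unadjusted p under 0.05). mt-Atp6, a subunit of ATP synthase, had 14374 and 18625 CPM in young, 14705 and 15691 in aged and 11623 and 12116 in 5xFAD (-0.52 ± 0.09), while none of 20 nuclear genes of oxidative phosphorylation was called (edgeR, DESeq2 and limma; 0 with an unadjusted p under 0.05). Npy, a neuropeptide of hilar interneurons, had 286 and 317 CPM in young, 289 and 421 in aged and 134 and 182 in 5xFAD (-0.99 ± 0.14) and Sst, the somatostatin gene of another interneuron type, 259 and 229 CPM in young, 216 and 181 in aged and 214 and 105 in 5xFAD (-0.76 ± 0.17). Npy was lower in both 5xFAD sections and Sst mainly in E4 5xFAD. Malat1, a nuclear noncoding RNA, had 361 and 303 CPM in young, 354 and 392 in aged and 174 and 191 in 5xFAD (-0.91 ± 0.14), and Gm42418, a transcript over ribosomal RNA sequence, 516 and 464 CPM in young, 451 and 384 in aged and 439 and 215 in 5xFAD (-0.72 ± 0.16). None of the lower calls held without E4 5xFAD, and the part of RNA quality in them was not tested.

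Against CA1, the effect of 5xFAD differed for 23 genes (0.213%), 12 of them higher in the dentate gyrus and 8 of these immediate early genes. Fos had 61.1 and 62.4 CPM in young CA1 and 21.6 and 34.5 in 5xFAD CA1, and differed by 3.96 ± 0.35, and Npas4 by 3.14 ± 0.44. Npy differed by -0.98 ± 0.19: it fell in the dentate gyrus and had 127 and 157 CPM in young and 105 and 183 in 5xFAD CA1. Of 17 cholesterol synthesis genes 4 were called, all lower relative to CA1, including Hmgcs1, an early enzyme of the pathway (-1.21 ± 0.21; 94.4 and 97.8 CPM in young and 75.3 and 111 in 5xFAD members, and 124 and 115 in young and 227 and 301 in 5xFAD CA1). The 17 genes had a median difference of -0.72. With all other spots in place of CA1, an alternative chosen after seeing the data, none of them was called (median 0.06; Hmgcs1 -0.18), with CA1 at the 97th percentile 1 was, and without E4 5xFAD or without young E4 none was (medians -0.65 and -0.44). Only 3 genes were called without E4 5xFAD, 3 without young E4 and 9 without young E3.

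Set directly against the aged sections, 5xFAD members had lower activity genes and higher glial genes. DESeq2 called no gene of the disease-associated microglial, complement or reactive astrocyte lists in this contrast, and limma called 6, 3 and 1. In all, 68 genes were called (0.65%), 30 higher (0.287%) and 38 lower (0.363%), with 31 without E4 5xFAD, 104 without young E4 and 108 without aged E3. Of the 27 immediate early genes 17 were lower (median of -1.87), and 14 without E4 5xFAD. Nr4a1 had a log2 fold change of -3.09 ± 0.19, Btg2 -3.10 ± 0.21, Fos -3.04 ± 0.34, Fosb -3.0 ± 0.25 and Npas4 -2.92 ± 0.30, and each was called whichever section was left out. Npy was lower by the same test (-1.21 ± 0.14, adjusted p = 1.3e-05), as were Malat1 (-1.08 ± 0.14) and Hbb-bs (-3.04 ± 0.40), the last not without E4 5xFAD or aged E4. Among the higher genes were Thy1 (2.88 ± 0.15), Tyrobp (2.02 ± 0.30), C4b (1.85 ± 0.30) and Gfap (1.62 ± 0.21), of which Thy1 alone held without E4 5xFAD.

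The third comparison, E4 against E3 over the 3 conditions, called 5 genes (0.0478%), 3 higher (0.0287%) and 2 lower (0.0191%). Serpina3n, a serine protease inhibitor of reactive astrocytes, was the clearest: it had 66.3 and 338 CPM in young E3 and E4, 65.6 and 415 in aged and 57.3 and 254 in 5xFAD (2.45 ± 0.13, adjusted p = 1.9e-11). All 3 E4 sections lay above all 3 E3 sections, and it was called whichever section was left out. In CA1 it had 136 and 153 CPM in young, 134 and 194 in aged and 129 and 169.6 in 5xFAD. The effect of E4 differed between the 2 fields for 6 genes (0.0555%), among them C1ql2, which chose the members, and for 17 without aged E3 or without aged E4. It differed for Serpina3n by 2.05 ± 0.18 (adjusted p = 2.6e-22). Against all other spots of the sections in place of CA1 that difference was 0.34 and did not pass.

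Gm47283, a predicted gene, was lower in E4, with 81.4 and 3.82 CPM in young, 155 and 1.72 in aged and 199.7 and 9.19 in 5xFAD (-4.84 ± 0.25), and 3300002P13Rik had 50.2 and 3.82 CPM in young, 62.0 and 0 in aged and 27.8 and 2.76 in 5xFAD, at least 24.0-fold lower in aged E4 than in aged E3. Both were called whichever section was left out. Eps8l1, an actin regulator, had 0 and 19.1 CPM in young, 0 and 14.6 in aged and 1.64 and 4.59 in 5xFAD, at least 6.34-fold higher in young E4 and 6.68-fold higher in aged E4 than in the matching E3 section, and was not called without young E3, young E4 or aged E4. mt-Co1, a cytochrome oxidase subunit of the mitochondrial genome, had 11930.0 and 17884 CPM in young, 13730.4 and 15445 in aged and 9175 and 13578 in 5xFAD (0.46 ± 0.08) and was called in 2 of the 6 fits with a section left out. The count of 5 was 25 without young E4, 38 without aged E3 and 33 without aged E4.

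No immediate early gene passed in E4 against E3 (0 of 27 by edgeR, 8 with an unadjusted p under 0.05, 4 by limma and 0 by DESeq2; median of 0.31 against 0.002 for all genes), and 0 to 9 were called with a section left out. Egr1 alone of the list differed between the fields, by 0.91 ± 0.14 (adjusted p = 8.5e-07). Disease-associated microglial genes were not called either (0 of 21 by edgeR, DESeq2 and limma, beside 0.0478% of all genes by edgeR). Of the 21, 4 had an unadjusted p under 0.05, and the list had a median of 0.26. In E4 5xFAD over E3 5xFAD, 8 of 21 measured genes of that list were over 2-fold higher and none over 2-fold lower, and 4 of 6 complement genes, beside the 2.43% of all genes given above. Tyrobp had a log2 ratio of 1.43 (0.96 to 1.93), Gfap 1.42 (1.10 to 1.76) and C4b 1.79 (1.10 to 2.55) in this pair, with no test.

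The receptors and channels of the granule cells showed no call in any of the 4 contrasts. Calls were rare over all genes too, at 0.0478% to 0.65% in a contrast. The lack of calls in lists of this size therefore does not set them apart from other genes. Of 13 tested glutamate receptor genes, 10 GABA A receptor genes, 14 potassium channel genes and 30 synaptic genes, none was called by edgeR, DESeq2 or limma, and at most 3, 1, 3 and 5 had an unadjusted p under 0.05 in 1 contrast. List medians lay between -0.13 and 0.10 on the log2 scale. Glycolysis genes (0 of 18) and cholesterol synthesis genes (0 of 17) were likewise not called in the members by any of the 3 tools, with at most 1 and 3 genes at an unadjusted p under 0.05. The list of 7 granule cell peptides and activity markers gave Fosb in aged and Fosb and Npy in both 5xFAD contrasts. Calb1, Penk, Cck, Bdnf and Pdyn, its other members, were not called in any contrast. Penk, an enkephalin precursor that activity induces, had 75.3 and 118 CPM in young, 147 and 85.1 in aged and 109.7 and 141 in 5xFAD, and the groups overlapped.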

How the data were processed

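The authors deposited raw UMI counts for every gene in every spot, made with Space Ranger 1.3.0 and STAR 2.5.1b on mm10 per their notes; file headers name Space Ranger 1.2.2 (5 sections) and 2.0.0 (E3 5xFAD). No normalization was applied. Masks marked 16979 spots, 14524 had a barcode in the matrices, and 1190 under 1000 UMIs were left out, leaving 13334. Of members, 48 barcodes recur between sections, since slides share 1 barcode set. UMIs were summed over the members of each section, with 32285 mouse genes and 3 human genes, of which 1 transgene is not reported here, nor are a few mouse genes. Python 3.11.15 was used for the sums and R 4.3.3 for the tests.

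Each group holds 1 section, so 2 sections were never tested. edgeR 4.0.16 (quasi-likelihood, TMM, filterByExpr) was fitted to the 6 sums with condition and genotype as additive terms, which leaves few residual degrees of freedom and no interaction, and to 12 sums (members and CA1) with section as a block and interactions with region. Adjusted p-values (Benjamini-Hochberg, 0.05) cover all genes tested and measure only the spread between these sections. In the fit with region they measure only the spread, over these sections, of the difference between members and CA1. Both fits leave 2 residual degrees of freedom and share information on spread between genes, so very small p-values rest on that sharing. DESeq2 1.42.0 and limma 3.58.1 were alternatives, beside other percentiles, spot filters and each section left out. Genes were named by rule: up to 10 per direction and contrast by fold change with the same direction in every pair of sections, members of the marker and activity lists, called members of other lists and up to 10 per interaction. Members, lists and rules were chosen with earlier results of these data known. The scripts were tested on simulated data. A known change of 1 on the log2 scale was called for 60.61% to 69.7% of the changed genes tested by the additive fit. The fit with region called 33.33% at that size and 73.13% at a change of 2. Many changes of that smaller size would therefore be missed. Intervals of ratios are exact binomial and cover counting error only.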

Additional observations from a re-analysis of the deposited data

Results flagged for a closer look

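These results are given here because the effect of a group differed between dentate gyrus and CA1 spots of the same sections by the test of that difference (edgeR, interaction with region, adjusted p under 0.05). All differences are on the log2 scale, dentate gyrus minus CA1, and their causes were not tested. Each was also computed with all other spots of the sections in place of CA1, an alternative chosen after seeing the data.

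For aged against young the difference was 4.55 for Fos, 3.79 for Egr2, 3.76 for Ripply2, 3.26 for Npas4, 3.11 for Junb, 3.08 for Egr4, 3.03 for Btg2, 2.77 for Egr1, 2.71 for Fosb and 2.69 for Nr4a1. Fos, Junb, Egr4, Egr1 and Nr4a1 passed whichever section was left out. Egr2 did not pass without young E4 or aged E4, Npas4 and Btg2 not without young E4, and Fosb not without young E3, young E4 or aged E3. Ripply2, a transcriptional repressor of somite formation, was scarce (10.0 and 9.94 CPM in young and 16.8 and 18.9 in aged members, 12.2 and 16.9 in young and 1.11 and 2.55 in aged CA1) and passed in 1 of 6 fits with a section left out. Both aged CA1 values of Ripply2 lie under the level of 3 UMIs there (3.33 CPM in aged E3 and 7.65 in aged E4). Against all other spots Ripply2 did not pass (1.03), and the other 9 did.

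For 5xFAD against young the difference was 3.96 for Fos, 3.14 for Npas4, 3.03 for Tac2, 2.48 for Fosb, 2.38 for Nek1, 2.17 for Junb, 2.12 for Btg2, 1.92 for Egr4, -1.86 for Idi1 and 1.61 for Gm13889. None of these 10 passed without E4 5xFAD, and Fos alone of them passed without young E4. Against all other spots Tac2 (0.70), Nek1 (1.17), Idi1 (-0.26) and Gm13889 (0.44) did not pass, and the other 6 did. Tac2, a tachykinin that also marks the habenula, had 12.1 and 3.82 CPM in young and 6.55 and 25.7 in 5xFAD members. In CA1 it had 7.63 and 30.5 CPM in young and 8.09 and 10.3 in 5xFAD, where 8.09 is the level of 3 UMIs in E3 5xFAD. Idi1, an enzyme of isoprenoid synthesis, had 30.1 and 29.8 CPM in young and 19.6 and 29.4 in 5xFAD members, and 22.9 and 17.6 in young and 70.1 and 54.5 in 5xFAD CA1.

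For E4 against E3 the difference was 2.05 for Serpina3n, -1.01 for Sst, 0.99 for Cnr1 and 0.91 for Egr1. Serpina3n, Sst and Egr1 passed whichever section was left out, but against all other spots Serpina3n (0.34) and Sst (-0.27) did not pass, while Cnr1 (1.02) and Egr1 (0.92) did. Sst had 238.2 and 327 CPM in young, 201 and 349 in aged and 213 and 296 in 5xFAD CA1, where each E4 section was the higher, and was lower in each E4 section of the members. Cnr1, the cannabinoid receptor, stood apart in aged E4 (55.4 and 194 CPM in aged E3 and E4 members, 61.3 and 68.0 in young and 50.7 and 71.6 in 5xFAD).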

How the results depend on the processing

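No paired analysis was possible because each group holds 1 section and the labels give no replicate number that pairs sections. Under the alternatives, 826 of 963 values of the 56 named gene and contrast pairs kept their direction and call, 137 kept the direction but not the call (26 of them without E4 5xFAD), and none reversed. Genes of the contrasts were named in part for the same direction in every pair of sections. The lack of reversals therefore follows in part from that choice and is no measure of stability. Of 216 list medians 91 moved, and of 109 counts 69 stayed within 1.5 times. The members numbered 134 at the pooled 99th percentile. E4 against E3 (5 genes) gave 8 at the 97th percentile, 10 at the 99th, 13 with each section's own 98th percentile, 8 with equal spots per section, 29 with no low count filter, 2 by DESeq2, 15 by limma on mean levels and 5 to 38 with a section left out. Aged against young (34) gave 56 with each section's own percentile, 64 with no filter, 16 by DESeq2 and 33 to 62 with a section left out. 5xFAD against young (51) gave 98 with no filter, 8 by DESeq2 and 6 to 95 with a section left out. 5xFAD against aged (68) gave 117 with each section's own percentile, 124 with no filter, 13 by DESeq2 and 31 to 108 with a section left out. Against CA1 taken at the 97th percentile, the E4 effect differed for 10 genes and the 5xFAD effect for 9, and with a section left out the counts ran from 4 to 17 for E4, 9 to 42 for aged and 3 to 27 for 5xFAD. Chosen after seeing the data, sums thinned to the smallest section gave 14 genes for E4, young and 5xFAD sections alone 31 for E4 and 78 for 5xFAD, and all other spots in place of CA1 16 for E4 and 14 for 5xFAD. The cause of these changes was not tested. Depth limits genes of few UMIs in the members most in E3 5xFAD, where 3 UMIs are 4.91 CPM, against 2.19 to 3.01 CPM elsewhere. In CA1 spots 3 UMIs are 8.09 CPM in E3 5xFAD, 7.65 in aged E4 and 2.03 to 4.58 elsewhere.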

Other observations

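The 14 genes listed for neurogenesis summed to 348 to 495 CPM in members, 152 to 237 CPM in CA1 spots and 213 to 252 CPM in the remaining spots, a description with no test. Tubb2b, a tubulin, held the largest part of the sum in each section (225 and 175 CPM in young E3 and E4, 201 and 187 in aged and 159 and 294 in 5xFAD), and several others had few UMIs. Dcx, a microtubule protein of migrating neurons, had 10.0 and 7.64 CPM in young E3 and E4, 3.65 and 7.74 in aged and 6.55 and 3.67 in 5xFAD, and Igfbpl1, a marker of immature granule cells, 10.0 and 3.82 CPM in young, 0 and 0.86 in aged and 0 and 0.92 in 5xFAD. Mki67, a gene of dividing cells, had no UMI in any member, and Eomes, of intermediate progenitors, had 2.01 CPM in young E3 and none elsewhere. Of 14 neurogenesis genes 6 passed the filter and none was called in any contrast by edgeR, DESeq2 or limma. At most 2 had an unadjusted p under 0.05 in 1 contrast. Of all genes, edgeR called 0.0478% to 0.65% in a contrast. In aged against young all 6 had a log2 fold change under 0, with a median of -0.40. In E4 against E3 and in 5xFAD against young 3 of the 6 were under 0. Neurod1, a transcription factor of maturing granule cells, had 68.3 and 68.0 CPM in young, 43.8 and 53.3 in aged and 63.8 and 48.7 in 5xFAD, and Sox11 34.2 and 22.9 CPM in young, 27.7 and 18.1 in aged and 31.1 and 30.3 in 5xFAD.

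Some genes stood high in single sections. Ttr, the transthyretin of choroid plexus, had 2676 CPM in young E3 members and 1071 in E4 5xFAD, against 90.2 in young E4. Oxt, the oxytocin precursor, had 21.1 and 0.76 CPM in young, 2.19 and 0 in aged and 6.55 and 82.7 in 5xFAD, highest in E4 5xFAD. Hba-a2, an alpha globin, had 8.04 and 5.35 CPM in young, 15.3 and 36.1 in aged and 4.91 and 5.51 in 5xFAD, highest in aged E4.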
